A study of Mus musculus with 272 samples.

Results

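The genes described are the myocyte enhancer factors *Mef2a*, *Mef2c* and *Mef2d*, the serum response factor gene *Srf*, and the myoblast fusion genes *Mymk* and *Mymx*, taken by gene name from the GENCODE M21 annotation of mm10. They are 6 of the 21938 protein-coding genes on the 21 assembled chromosomes. The study profiled chromatin in muscle stem cells (MuSCs) sorted as GFP-positive cells from the hindlimb muscles of Pax7Cas9 mice, in which Pax7-driven Cre switches on a Cas9-EGFP knockin at Rosa26, and its 272 samples hold mainly edited target sites. Used here are 8 peak lists, replicates 1 and 2 each of ATAC-Seq, H3K4me3, H3K27ac and H3K27me3, all from that genotype. The labels of these libraries give skeletal muscle as the tissue and no age or treatment, and say nothing of whether replicates came from separate animals. There is no second condition, so values are compared between genes and between replicates.

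MEF2 proteins are MADS-box transcription factors that act with the MyoD family on muscle genes, and class IIa histone deacetylases hold them inactive until calcium or kinase signals release them. SRF is a MADS-box factor too, and binds CArG boxes with the actin-sensing MRTF cofactors or the growth-signal-dependent ternary complex factors. *Mymk* encodes myomaker and *Mymx* encodes myomerger, the muscle membrane proteins that drive myoblast fusion, which quiescent MuSCs do not undergo. ATAC-Seq marks open chromatin, H3K4me3 marks promoters, H3K27ac marks active promoters and enhancers, and H3K27me3 marks Polycomb-repressed chromatin.

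The sorted cells carried the marks of MuSC genes. Of 13 MuSC marker genes, including *Pax7* and *Myf5*, 13 were marked by H3K4me3 and 12 by H3K27ac at the promoter in both replicates. Among all protein-coding genes these shares were 60.8% and 46.6%. H3K4me3 was present in both replicates at 5 of 10 myofibre, 5 of 10 fibro-adipogenic, 5 of 10 endothelial and 4 of 9 blood markers. H3K27ac was present in both replicates at 3 of 10 myofibre, 3 of 10 fibro-adipogenic, 1 of 10 endothelial and 1 of 9 blood markers, and the part of other cells in the values below was not tested. The 2 ATAC-Seq lists stand apart from each other in size, with 140937 and 94574 peaks, and in their strongest peaks. Of 2340 replicate 1 peaks with a fold enrichment of at least 30, 92.6% had no overlapping peak in replicate 2, whereas each of the 82 such peaks of replicate 2 had one in replicate 1.

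Sequences are shown first for 5 open windows that the results below return to. They were read 5′ to 3′ on the strand of the gene from GRCm38.p6 (mm10), and none overlaps an annotated exon (the *Srf* promoter is shown up to the first base of its GENCODE exon). The *Srf* promoter, chr17:46556176-46556412 on the minus strand, and a window within the *Srf* gene, chr17:46553172-46553471, are shown for their CArG boxes, the SRF binding motif, in capitals. The *Mef2c* window, chr13:83603928-83604227 on the plus strand, lies in an intron, 100.04 kb downstream of the first start site, and is shown for a pair of MEF2 motifs in capitals, since *Mef2c* itself encodes a MEF2 factor. The window in a *Mymk* intron, chr2:27069610-27069909, and the window upstream of *Mymx*, chr17:45610315-45610614, both on the minus strand, are shown with E-boxes in capitals. An E-box here is any CANNTG, a core that MyoD family factors share with other factors.
Srf promoter: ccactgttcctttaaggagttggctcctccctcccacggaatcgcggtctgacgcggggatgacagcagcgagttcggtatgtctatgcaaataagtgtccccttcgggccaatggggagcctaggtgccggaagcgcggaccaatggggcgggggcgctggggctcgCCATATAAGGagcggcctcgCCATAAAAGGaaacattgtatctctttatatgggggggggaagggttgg
Srf intron: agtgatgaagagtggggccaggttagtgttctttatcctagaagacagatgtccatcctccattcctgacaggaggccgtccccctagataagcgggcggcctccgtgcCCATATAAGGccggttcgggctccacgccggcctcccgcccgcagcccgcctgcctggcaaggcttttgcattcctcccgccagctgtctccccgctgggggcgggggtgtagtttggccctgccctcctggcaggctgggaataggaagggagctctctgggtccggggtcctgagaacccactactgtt
Mef2c intron: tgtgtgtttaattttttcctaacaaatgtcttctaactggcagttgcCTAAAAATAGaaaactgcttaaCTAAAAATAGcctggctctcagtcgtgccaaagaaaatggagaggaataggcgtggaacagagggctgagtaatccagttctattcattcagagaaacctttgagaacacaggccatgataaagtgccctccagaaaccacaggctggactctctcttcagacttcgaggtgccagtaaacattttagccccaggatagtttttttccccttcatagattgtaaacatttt
Mymk intron: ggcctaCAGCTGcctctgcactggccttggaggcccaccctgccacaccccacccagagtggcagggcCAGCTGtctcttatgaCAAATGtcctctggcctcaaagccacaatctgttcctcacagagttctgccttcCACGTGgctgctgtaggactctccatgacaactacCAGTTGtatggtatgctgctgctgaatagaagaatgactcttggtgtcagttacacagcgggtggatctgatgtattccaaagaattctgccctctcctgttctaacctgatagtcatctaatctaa
Mymx upstream: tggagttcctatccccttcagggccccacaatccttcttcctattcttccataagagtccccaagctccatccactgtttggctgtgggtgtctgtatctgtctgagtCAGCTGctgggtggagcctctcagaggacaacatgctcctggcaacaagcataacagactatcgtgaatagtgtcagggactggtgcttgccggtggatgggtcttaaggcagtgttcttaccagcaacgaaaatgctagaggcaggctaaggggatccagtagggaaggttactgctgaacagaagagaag

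Open chromatin was found at the promoters of all 6 genes, whereas the active marks separated them. A promoter was taken as 3 kb either side of any annotated start site, and a mark counted where a peak overlapped it in both replicates. Promoter peaks of ATAC-Seq were present for 6 of 6 genes, against 67.8% of protein-coding genes, of H3K4me3 for 5 of 6 against 60.8%, of H3K27ac for 4 of 6 against 46.6%, and of H3K27me3 for 0 of 6 against 4.81%. With 6 genes these shares are counts beside a background and carry no test. *Mef2a*, *Mef2d*, *Srf* and *Mymx* carried ATAC-Seq, H3K4me3 and H3K27ac peaks together, the state of 46.2% of protein-coding genes. *Mef2c* had ATAC-Seq and H3K4me3 without H3K27ac in both replicates, as 13.7% of genes did. *Mymk* had ATAC-Seq and no histone mark in both replicates, as 6.91% of genes did.

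The state of *Mymx* depended on the window and on the peak threshold. Within 1 kb of a start site, the counts were 6 genes for ATAC-Seq (64.0% of protein-coding genes), 4 for H3K4me3 (59.6%), 3 for H3K27ac (45.4%) and 0 for H3K27me3 (4.11%). *Mymx* was the gene lost for both H3K4me3 and H3K27ac, since those peaks lay 2.04 to 2.32 kb from its nearest start site. They also lay within 3 kb of a start site of *Slc29a1*, a nucleoside transporter gene. Within 1 kb neither fusion gene had H3K4me3 or H3K27ac in both replicates. With a −log10 q of at least 5 in the 3 kb window, H3K27ac was left at 3 genes, and *Mymx*, whose peaks were below that value in both replicates, was again the gene lost.

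**Figure D1:**
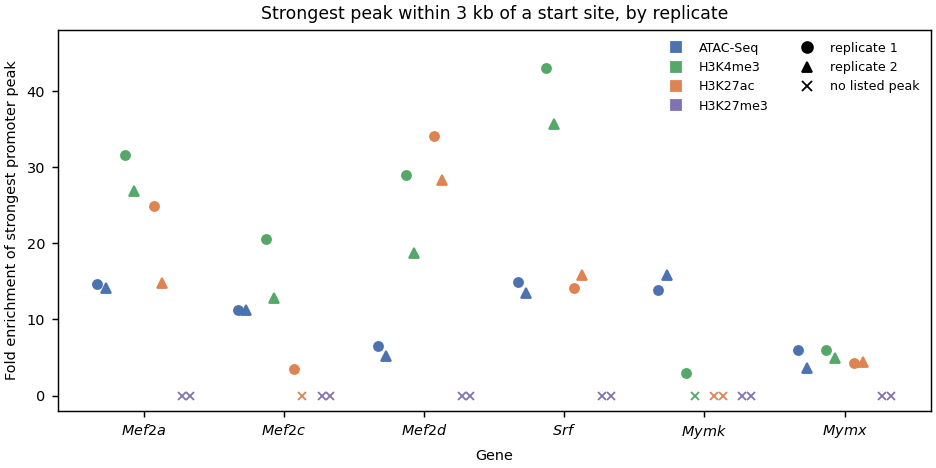
Fold enrichment (y axis) of the strongest peak within 3 kb of a start site of each gene (x axis), with colour for the feature, circles for replicate 1, triangles for replicate 2 and crosses at 0 for no listed peak. *Srf* reached the highest H3K4me3 values (43.1 and 35.7), *Mef2d* the highest H3K27ac values (34.1 and 28.3), and *Mymk* showed ATAC-Seq values of 13.8 and 15.9 with a single weak histone peak.

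*Srf*, the gene of the serum response factor (ENSMUSG00000015605.6, chr17:46548329-46556175, minus strand), had the strongest promoter mark of H3K4me3 among the 6. Its strongest H3K4me3 peak reached a fold enrichment of 43.1 in replicate 1 and 35.7 in replicate 2, a mean of 39.4 ± 5.23 (SD, n = 2). Among genes with an H3K4me3 promoter peak in the same list, these values stood at percentiles 95.2 and 97.8. The peaks were 4066 and 2468 bp wide. The H3K27ac peak of *Srf* was closer to the middle of its list, with folds of 14.2 and 15.8 at percentiles 50.4 and 67.4. ATAC-Seq gave 14.9 and 13.4 with summits at −126 and −143 bp from the start site, within the *Srf* promoter window printed above.

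The open *Srf* promoter held the motif of the protein that the gene encodes. The 250 bases before the RefSeq start site contained a pair of CArG boxes, which began 82 and 62 bases before that start. At least 1 CArG box was found in 1.47% of the 32851 RefSeq promoters searched in the same way, and at least 2 in 6 of them, or 0.0183%. *Srf* is among these 6, and the limit of 2 equals its count, so the share carries no test. A second open element lay within the gene, 2.85 kb (replicate 1) and 2.89 kb (replicate 2) downstream of the start, with folds of 5.78 and 5.21, and replicate 1 listed a stronger neighbouring peak of 11.2. The 300 bases round both summits held 1 CArG box, the one in capitals in the *Srf* intron sequence. Of 300-base windows round all ATAC-Seq summits, 1.37% in replicate 1 and 1.31% in replicate 2 held a CArG box. Both windows of *Srf* overlapped H3K4me3 peaks in both replicates. A match is a letter pattern and was not tested for binding.

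*Mef2d* (ENSMUSG00000001419.17, chr3:88142372-88172086, plus strand), a MEF2 factor with a muscle-specific splice form, had the strongest and widest acetylation. H3K27ac at its promoter reached 34.1 and 28.3, at percentiles 94.3 and 95.1 of the promoters in each list, with a mean of 31.2 ± 4.09 (SD, n = 2). The single peak of replicate 1 was 5480 bp wide, at percentile 99.8 for width, while replicate 2 split the same stretch into a peak of 2303 bp and a neighbour of 1841 bp. H3K4me3 was also broad, at 4990 and 3426 bp (percentiles 98.7 and 97.2 for width), though its folds of 28.9 and 18.7 were nearer the middle (percentiles 65.4 and 54.7). Openness at the same promoter was low among open promoters. The strongest ATAC-Seq folds of *Mef2d* were 6.54 and 5.17, at percentiles 10.3 and 5.83.

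Acetylated chromatin extended to both sides of the *Mef2d* start. An upstream element with H3K27ac summits at −3.39 and −3.59 kb from the first start site carried H3K27ac (18.8 and 18.3), H3K4me3 (15.8 and 12.4) and ATAC-Seq (5.72 and 3.71, with a second pair of 4.85 and 4.08). Beyond the end of the gene, 35.7 kb downstream of the start, an element at the annotated start of 1700113A16Rik had the strongest ATAC-Seq (21.8 and 22.3) and the strongest H3K27ac (38 and 31.3) of the whole *Mef2d* locus. H3K4me3 there was 17 and 12.4. Both elements were present in both replicates for all 3 features.

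The *Mef2d* locus had more H3K27me3 peaks than the other 5 loci. There were 12 in replicate 1 and 27 in replicate 2 within 50 kb, and 11 and 12 of these overlapped a peak of the other replicate. Of the 12 and 27 peaks, 4 and 17 had a q of at most 0.05, a limit that every peak of the other 3 features met. Their summits lay 54.6 kb or more downstream of the *Mef2d* start, and 12 of 12 and 26 of 27 peaks were at promoters of other genes, among them *AI849053*, *AW047730*, *Gm3764* and the microRNA genes *Mir3093* and *Mir9-1*. The highest folds were 5.63 in replicate 1 and 6.16 in replicate 2. H3K4me3 was listed in the same stretch at low folds of 3.41 to 5.56. At the *Mef2d* promoter itself neither replicate listed an H3K27me3 peak, and the nearest lay 31.0 and 28.6 kb from any *Mef2d* start site.

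*Mef2a* (ENSMUSG00000030557.17, chr7:67231163-67372858, minus strand), the MEF2 factor gene with broad expression, had a compact active promoter. H3K4me3 was 31.6 and 26.8 (percentiles 73.4 and 84.1), ATAC-Seq was 14.6 and 14.2, and H3K27ac was 24.9 and 14.8. The H3K27ac replicates lay far apart (19.8 ± 7.17, SD, n = 2) and their range included the values of *Srf*, apart from the 14.2 of its replicate 1, so that *Mef2a* and *Srf* could not be ordered on H3K27ac. The 141696 bp gene has 5 clusters of start sites, defined as sites no more than 1 kb apart, and the first was marked by all 3 features in both replicates while the other 4 had no listed peak within 1 kb. Upstream of the gene, at −18.1 kb from the start, an intergenic ATAC-Seq peak of 19.6 and 24 exceeded that at the promoter in both replicates. It carried no listed H3K27ac or H3K4me3 peak. A single H3K27me3 peak was listed in an exon of *Mef2a*, in replicate 1, with a fold of 3.29 and a −log10 q of 0.454, under the lowest value of 1.32 in the lists of the other features.

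*Mef2c* (ENSMUSG00000005583.16, chr13:83504034-83667080, plus strand), a MEF2 factor required for heart and muscle development, has 31 annotated transcripts in 9 clusters of start sites. H3K4me3 in both replicates was found at the second cluster (start sites 83523473 to 83524920), with folds of 20.6 and 12.8 and widths of 2681 and 1673 bp. These stood at percentiles 40.7 and 31.4 among promoters. ATAC-Seq there reached 11.0 in both replicates. The first cluster, at the 5′ end of the gene, had ATAC-Seq (3.75) and H3K4me3 (3.95) in replicate 1 and neither in replicate 2. The fourth cluster, at 83572348 to 83572381, was open at 11.2 in both replicates and had no H3K4me3.

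Acetylation at *Mef2c* did not repeat between replicates. Replicate 1 listed H3K27ac at the fourth cluster, with a fold of 3.45 and a −log10 q of 2.07, and within the gene at 105.7 kb with a fold of 4.22. Replicate 2 listed no peak in the gene or within 50 kb, and its nearest H3K27ac peak lay 569 kb from a start site. A further H3K4me3 peak, 14.3 and 14.2 kb downstream of the first start site and at no annotated start, had folds of 13.1 and 7.73 and coincided with ATAC-Seq peaks of 12.8 and 13.5. H3K27me3 was listed beyond the 3′ end of *Mef2c*, 209.7 to 213.1 kb from the first start, with 5 and 6 peaks and folds up to 4.92 and 5.52. Polycomb marks were not listed at any *Mef2c* start site.

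Within the *Mef2c* gene, an open intronic element 100.04 and 100.08 kb from the first start site held 2 MEF2 motifs in both replicates' windows. Its folds were 11.0 and 10.3. The motifs, separated by a short spacer, are the capitals of the *Mef2c* intron sequence. At least 2 MEF2 motifs were present in 0.149% of windows round ATAC-Seq summits in replicate 1 and 0.0583% in replicate 2, and at least 1 in 3.13% and 2.22%. The limit of 2 equals the count at this element, which was picked from all summits searched, so these shares carry no test. Neither H3K27ac nor H3K4me3 was listed over the element.

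**Figure D2:**
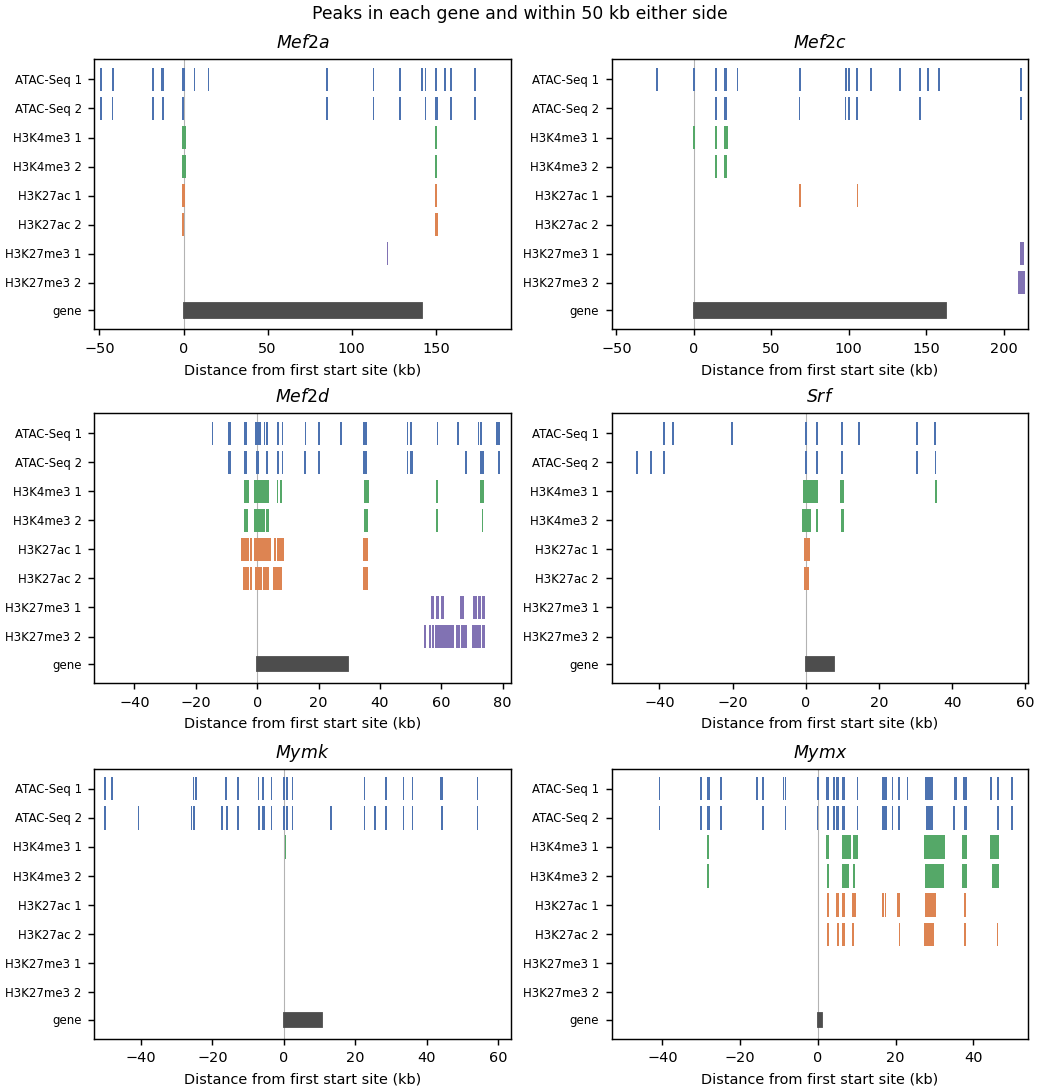
Peaks of the 8 lists (rows, feature and replicate) in each gene and 50 kb either side, by distance in kb from the first start site in the direction of transcription. Bars narrower than 1/250 of the axis are drawn at that width, and the grey bar is the gene. Around *Mef2d* the active marks lie at both sides of the start and round 35.6 kb, with weak H3K4me3 farther on, and the H3K27me3 peaks at 54.6 kb or beyond, while *Mymk* shows ATAC-Seq and a single H3K4me3 peak.

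*Mymk*, which encodes myomaker (ENSMUSG00000009214.9, chr2:27061636-27072179, minus strand), was open without active marks. Each ATAC-Seq replicate listed 3 peaks at its promoter. At the first start site the folds were 7.91 and 5.42, at 0.786 and 0.821 kb inside the gene 6.77 and 6.58, and at 2.42 and 2.35 kb 13.8 and 15.9. The innermost and strongest of these stood at percentiles 53.5 and 74.2 of strongest promoter peaks. H3K4me3 was listed once, in replicate 1, with a fold of 2.92 at percentile 0.391. No H3K27ac peak was listed within 50 kb in either replicate, and the nearest lay 57.1 and 57.4 kb away. No H3K27me3 peak lay within 50 kb either, the nearest being 815 and 861 kb away.

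The innermost *Mymk* element, printed above as the *Mymk* intron sequence, held 5 E-boxes in the window of each replicate, and so did the peak at the *Mymk* start site. At least 1 E-box was present in 80.2% and 81.1% of windows round ATAC-Seq summits, so a single E-box is the usual state. At least 5 were present in 4.29% and 4.95%, a limit equal to the count at these *Mymk* peaks. Such counts were not confined to *Mymk*. An intronic *Mef2d* peak (folds of 5.84 in replicate 1 and 4.92 in replicate 2) held 6 E-boxes in both replicates. A peak of the *Srf* locus listed in replicate 2 only (4.01) held 5. No MEF2 motif or CArG box was found at any ATAC-Seq summit of the *Mymk*, *Mymx* or *Mef2d* locus. Both motifs are uncommon, with a MEF2 motif in 3.13% and 2.22% and a CArG box in 1.37% and 1.31% of all such windows. The *Mymk* locus as a whole had many open sites, 19 and 22 ATAC-Seq peaks, of which 15 in each replicate overlapped the other. The highest, 23.8 and 26.3, lay at the promoter of *Slc2a6*, a glucose transporter family gene.

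*Mymx*, which encodes myomerger (ENSMUSG00000079471.4, chr17:45600971-45602102, minus strand), is a gene of 1132 bp within a dense cluster of active genes. At its own start, ATAC-Seq was at 2.87 and 2.75, with summits at −62 and −63 bp from the first start site and −log10 q of 3.55 and 3.38. These folds stood at percentiles 0.956 and 0.929 of all peaks in each list. The H3K4me3 (6.02 and 4.87) and H3K27ac (4.22 and 4.41) peaks within 3 kb were centred 2.58 and 2.64 kb, and 2.44 and 2.69 kb, downstream of the start, beyond the end of *Mymx* and at the *Slc29a1* promoter. No H3K27me3 peak was listed within 50 kb.

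Upstream of *Mymx*, open elements of higher fold stood alone. At −8.36 and −8.37 kb from the start, the element printed above had ATAC-Seq folds of 18.1 and 17.3 with 1 E-box, and at −14.2 kb another had 12 and 12.4. Neither carried a listed H3K4me3 or H3K27ac peak. On the downstream side the strongest H3K4me3 (39.7 and 31.4) and H3K27ac (21 and 27.1) lay at *Hsp90ab1*, which encodes a constitutive HSP90 chaperone. The ATAC-Seq, H3K4me3 and H3K27ac peaks of *Mymx* within 3 kb all lay within 3 kb of an *Slc29a1* start site too. They cannot be told apart from those of *Slc29a1*.

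Peak density differed between the loci. In the 6 genes and 50 kb either side there were 136 and 104 ATAC-Seq, 23 and 22 H3K4me3, 21 and 20 H3K27ac, and 18 and 33 H3K27me3 peaks. *Mymx* had 36.6 and 26.7 ATAC-Seq peaks per 100 kb, at percentiles 99.9 and 99.6 of all protein-coding genes, and *Mymk* had 17.2 and 19.9, at percentiles 82.6 and 96.5. *Mef2a*, *Mef2c* and *Srf* were near the middle, at percentiles 44.6 to 58.4. *Mef2d* was high for ATAC-Seq (90.6 and 89.1) and H3K4me3 (90.3 and 91.3), and *Mymx* was higher still for H3K4me3 (95.5 and 97.4). For H3K27ac, *Mymx* stood at 96.7 and 96.9 and *Mef2d* at 87.4 and 93.4. With H3K27me3 peaks of any q counted, *Mef2d* stood at 98.7 and 99.3. Of the ATAC-Seq peaks, 46 and 29 lay at the promoter or in the body of one of the 6 genes, and 47 and 36 at the promoter of another gene only.

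**Figure D3:**
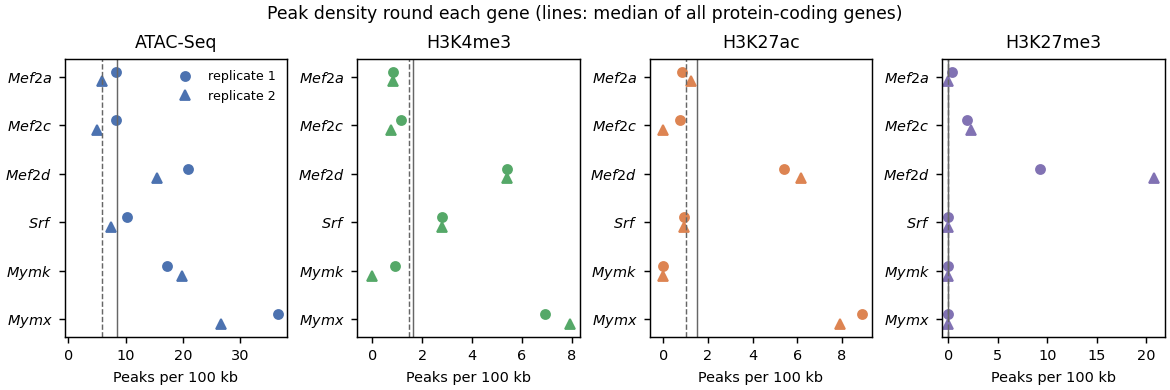
Number of peaks per 100 kb (x axis) in each gene (y axis) and 50 kb either side, for each feature, with circles for replicate 1 and triangles for replicate 2. Lines give the median of all protein-coding genes in replicate 1 (solid) and replicate 2 (dashed), which is 8.49 and 5.90 for ATAC-Seq, and *Mymx* lies far above it while *Mef2a* and *Mef2c* lie close to it.

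Over all 22 clusters of start sites of the 6 genes, 8 had ATAC-Seq peaks within 1 kb in both replicates, 4 H3K4me3, 3 H3K27ac and 0 H3K27me3. Of the 22 clusters, 5 belong to *Mef2a* and 9 to *Mef2c*. No share was computed over the clusters of all genes, so these counts are not read as high or low. The 4 with H3K4me3 were the first clusters of *Mef2a*, *Mef2d* and *Srf* and the second of *Mef2c*. The 3 with H3K27ac were the same without that of *Mef2c*. ATAC-Seq without H3K4me3 in both replicates was found at the fourth *Mef2c* cluster, the second *Mef2d* cluster (5.84 and 4.92), the first of *Mymk* and the single cluster of *Mymx*.

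The strongest unmatched ATAC-Seq peaks lay in *Mef2a* and *Mef2c*. Of the 136 replicate 1 peaks, 98 (72.1%) had a counterpart in replicate 2, and 91 of the 104 replicate 2 peaks (87.5%) had one in replicate 1. Over all peaks of the lists these shares were 62.9% and 84.7%. In replicate 1, 6 peaks had a fold of at least 20, and 4 of them had no counterpart, as 57.6% of all replicate 1 peaks of that height did. These were an intronic peak of *Mef2a* (59.8, 6.56 kb from the start) and 3 of *Mef2c* (38.1, 39.5 and 26.6, at 98.1, 133.0 and 158.4 kb), each 107 to 130 bp wide. The 2 with a counterpart were the element downstream of *Mef2d* and the *Slc2a6* promoter, where the replicates gave 21.8 and 22.3, and 23.8 and 26.3. The 38 replicate 1 peaks without a counterpart had a median width of 91 bp, and the 98 with one had 190 bp. None of the strongest promoter values above rests on the 4 unmatched peaks.

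**Figure D4:**
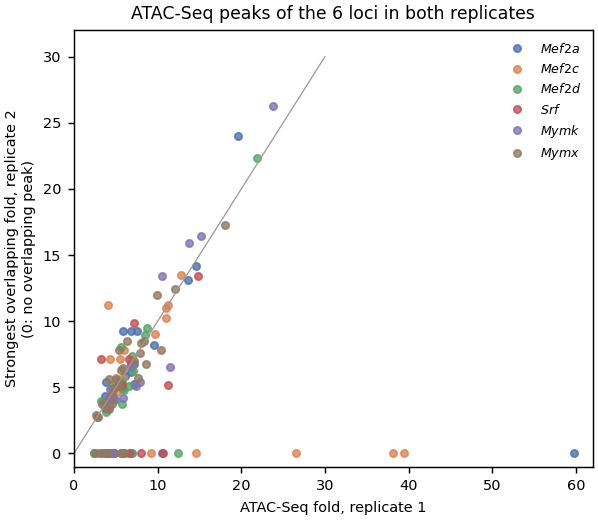
Fold enrichment of each of the 136 ATAC-Seq peaks of replicate 1 in the 6 loci (x axis) against the strongest overlapping peak of replicate 2 (y axis, 0 where none overlaps), coloured by gene, with the line of equal values. Most matched peaks lie near the line, and the 4 points at 0 beyond a fold of 20 belong to *Mef2a* and *Mef2c*.

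Genes related to MEF2, SRF and fusion are given by counts, beside the 67.8% of protein-coding genes with ATAC-Seq, 60.8% with H3K4me3, 46.6% with H3K27ac and 4.81% with H3K27me3 in both replicates. Of 12 MEF2 regulators and partners, 12 had ATAC-Seq and H3K4me3 and 11 had H3K27ac at the promoter in both replicates, and none had H3K27me3. They include the deacetylase genes *Hdac4* (H3K27ac 37.2 and 28.3) and *Hdac5* (16.1 and 13.6), and *Ep300*, an acetyltransferase coactivator (41.4 and 27.6). The exception was *Hdac9*, a class IIa deacetylase gene, with H3K4me3 of 6.82 and 9.22 and no H3K27ac. Of 8 SRF cofactors, 8 had ATAC-Seq, 7 H3K4me3 and 5 H3K27ac. Those without H3K27ac were *Myocd*, the cardiac and smooth muscle coactivator myocardin, and *Fhl2* and *Hopx*, which encode modulators of SRF. The MRTF genes *Mrtfa* (9.96 and 7.23) and *Mrtfb* (19.5 and 14.7) carried it.

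The targets of SRF and MEF2 showed a mixture of states. The background shares were again 67.8% for ATAC-Seq, 60.8% for H3K4me3, 46.6% for H3K27ac and 4.81% for H3K27me3. Of 15 SRF targets of the actin cytoskeleton, 14 had ATAC-Seq, 11 H3K4me3, 9 H3K27ac and 1 H3K27me3 in both replicates. H3K27ac was missing in at least one replicate at *Acta1*, *Actc1*, *Tagln*, *Cnn1*, *Myl9* and *Actg1*, of which the first 5 encode striated or smooth muscle proteins. The smooth muscle actin gene *Acta2* carried it, at 11.5 and 11.03. *Actg1* had no listed peak of any feature in the lists used. The reason was not tested, and this absence is not read as a closed promoter. H3K27me3 was present in the 3 kb window of *Acta1*, skeletal muscle actin, with folds of 3.75 and 4.11. Within 1 kb of an *Acta1* start site neither replicate listed it. Of 8 MEF2 targets, 8 had ATAC-Seq, 7 H3K4me3 and 5 H3K27ac, and those without H3K27ac were *Ckm*, muscle creatine kinase, *Myog* and *Xirp1*. *Ckm* also carried H3K27me3 at 6.00 and 3.74.

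Beside the same background of 46.6% for H3K27ac and 60.8% for H3K4me3, the other fusion genes were marked as follows. Of 23 genes for adhesion, signalling and actin remodelling in fusion, 23 had ATAC-Seq, 22 H3K4me3, 16 H3K27ac and 1 H3K27me3 in both replicates, and 16 kept H3K27ac within 1 kb. High values were found for the small GTPase genes *Rac1* (H3K27ac 45.2 and 36.4) and *Cdc42* (42.2 and 26.8) and for the integrin gene *Itgb1* (49.1 and 31.6), all of which act in many cell types. Among the 7 without H3K27ac in both replicates were the adhesion genes *Cdh2* and *Jam2*, the receptor genes *Adgrb1* and *Adgrb3*, *Dock5* and *Cav3*. *Cav3*, the muscle caveolin gene, was the one with ATAC-Seq (9.45 and 14.9) and no H3K4me3. *Adgrb1* was the one with H3K27me3 (4.88 and 5.82).

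**Figure D5:**
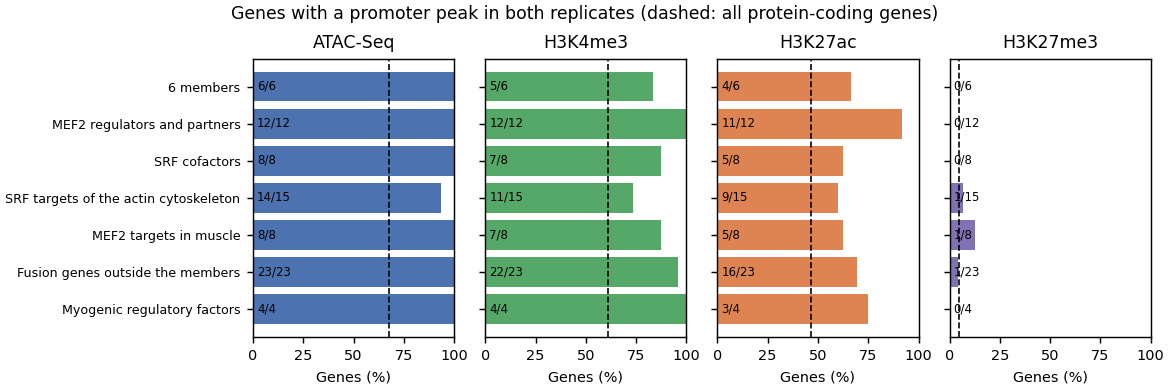
Share of genes in percent (x axis) with a promoter peak in both replicates, within 3 kb of a start site, for the 6 genes and for 6 lists of related genes (y axis), with the counts printed in the bars. The dashed line is the share of all 21938 protein-coding genes, 46.6% for H3K27ac, where the MEF2 regulators reach 11 of 12 genes and the SRF cofactors 5 of 8.

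Beside the 4 myogenic regulatory factors, *Mef2c* and *Mymk* were, like *Myog*, the differentiation factor gene, not called for H3K27ac in both replicates. Of all protein-coding genes 46.6% were so called, so the lack is not particular to these genes. *Mef2c* had a weak promoter H3K27ac peak (3.45) in replicate 1 only, and *Mymk* had none in either replicate. *Myog* had H3K4me3 of 3.95 and 3.81 and no listed H3K27ac, and ATAC-Seq of 6.72 and 7.02. *Mef2c* exceeded it in H3K4me3 (20.6 and 12.8), without overlap of the replicates, and *Mymk* was below it (2.92 and no listed peak). *Myod1* had H3K4me3 of 24.2 and 19.4 and H3K27ac of 15.5 and 10.6, and *Myf5*, the commitment factor gene, 19.3 and 12.2, and 10.3 and 13.2. The H3K27ac of *Mef2d* lay above that of all 4 factors in both replicates. H3K27me3 was listed at the promoter of none of the 4 factors or the 6 genes.

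The promoter pattern of each gene was also compared with all protein-coding genes, as the Euclidean distance between percentiles of strongest promoter fold over the 8 lists, with 0 for no peak. The nearest genes were *Txndc5* and *Brd8* for *Mef2a* (distances 12 and 12.2 percentile points), *Cmtm8* and *Tex9* for *Mef2c* (6.48 and 6.79), and *Nr1d1* and *Fosb* for *Mef2d* (14.8 and 15.4). For *Srf* they were *Dnajc13* and *Arpc2* (13 and 14), for *Mymk* *Ap1m2* and *Lect2* (1.61 and 3.45), and for *Mymx* *Gabrb2* and *Rasgrp1* (4.33 and 4.96). A small distance is easier to reach for a gene with few marks, and the distances are not comparable between the 6 genes.

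Motif counts at open sites were close to those of all ATAC-Seq peaks when the 6 loci were pooled. MEF2 motifs were present at 4 of 136 summits in replicate 1 (2.94%, against 3.13% of all peaks) and at 2 of 104 in replicate 2 (1.92% against 2.22%). In replicate 1 these were the promoter peak of *Mef2a* and 3 peaks of *Mef2c*, among them the unmatched peaks of 38.1 and 39.5. In replicate 2 there was 1 at *Mef2c* and 1 at *Srf*, and the window at the *Mef2a* promoter held none. CArG boxes were present at 3 (2.21% against 1.37%) and 2 (1.92% against 1.31%), and those of both replicates were at *Srf* apart from 1 in replicate 1 at *Mef2a*. E-boxes were present at 74.3% and 81.7%, against 80.2% and 81.1%. In the 250 bases before RefSeq start sites, which the table gave for 4 of the 6 genes in 6 windows, the *Mef2a* and *Mef2d* windows and the marked *Mef2c* window held none of the 3 motifs. Of all RefSeq promoters, 66.2% held an E-box and 2.92% a MEF2 motif. *Mymk* and *Mymx* had no entry in that table.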

How the data were processed

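MuSCs were profiled by ATAC-Seq and ChIP-seq in 8 libraries. Per the study's methods, the authors trimmed reads with Trim Galore 0.6.10, aligned them to mm10 with BWA 0.7.17-r1188, filtered on mapping quality, duplicates and blacklisted regions, and used MACS2 2.2.6 to call peaks in each library. The deposited lists give each peak's fold enrichment at its summit as a ratio to local background, and the authors' p-value and q-value as −log10. The H3K27me3 lists reach −log10 p values down to 3.01 and −log10 q of 0, whereas the other lists have a −log10 q of at least 1.32. Read numbers are not part of these lists, so depth is unknown and no counting interval could be given.

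Peaks on 21 chromosomes were compared with GENCODE M21, with overlap from 1 bp, in Python 3.11.15 and numpy 2.4.6. Percentiles of fold and width are among protein-coding genes with a promoter peak in the same list, and those of peak density are among all protein-coding genes. Folds were compared within a list or between replicates. No test was run, as the libraries form 1 condition. Overlap counting was checked on simulated intervals. Motifs equal their reverse complement, so that 1 search covered both strands. Sequences came from RefSeq promoters and the genome of GRCm38.p6. MEF2 and CArG motifs were the usual consensus forms.

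The members and lists were chosen with earlier results of these data known. The genes named are the 6 members, listed genes without H3K27ac or with H3K27me3 in both replicates (up to 6 a list), the 4 myogenic regulatory factors, the 2 nearest genes by promoter pattern, and genes at whose promoter a described peak lay. Further list genes (*Acta2*, *Hdac4*, *Hdac5*, *Ep300*, *Mrtfa*, *Mrtfb*, *Rac1*, *Cdc42*, *Itgb1*) were named after their values were seen. Inputs and edited samples were not analysed here.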

Additional observations from a re-analysis of the deposited data

How the results depend on the processing

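The counts of genes with a promoter peak stayed within 1.5 times under a 1 kb promoter, a −log10 q of at least 5, summits within the promoter, start sites of protein-coding transcripts only, and without either replicate. The number of peaks in the 6 loci, averaged over replicates, moved with the distance taken. Within 10 kb it was 60.5 for ATAC-Seq, 15.5 for H3K4me3, 16 for H3K27ac and 0.5 for H3K27me3, and within 100 kb it was 184, 40.5, 30 and 70.5. With a −log10 q of at least 5 it was 20 for H3K4me3, 13.5 for H3K27ac and 1.5 for H3K27me3, and an alternative chosen after seeing the data, H3K27me3 peaks with a q of at most 0.05, left 13.5. The strongest ATAC-Seq fold moved within 1 kb for *Mymk*, to 7.24, and for *Mymx*, to 2.81. Both promoters kept an ATAC-Seq peak within 1 kb but owe the higher values to elements farther from the start. The *Mymx* peaks within 1 kb had a −log10 q of 3.55 and 3.38, so they would not pass a limit of 5. No paired analysis was possible because the results come from no test.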
